A study of Mus musculus with 10 samples.

Results

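The 33 genes described here make up a p53 pathway list. It holds Trp53, which encodes the transcription factor p53, the MDM proteins and other regulators that restrain or assist p53. It also holds genes listed as p53 targets in arrest, repair, cell death and metabolism. Whether p53 activates each of these targets in mouse cardiomyocytes was not tested. The 33 genes were chosen by symbol from the 23337 genes of the authors' deposited table, after Cdkn1a had been seen to rise in the same comparison. The values below come from that comparison and are therefore a description, with no test that is independent of the choice. All 33 had a fold change and an adjusted p-value, so no member was lost to the authors' filter on low values. The samples were sorted cardiomyocytes of wild-type mice, with 5 GFP and 5 dnMKL1 libraries, which the labels call biological replicates. Every mouse received AAV9 at 5e+08 viral genomes per gram on postnatal day 1, and the cells were collected on postnatal day 14. In the GFP group the virus carried GFP alone, and in the dnMKL1 group it carried dnMKL1 together with GFP, in both cases behind the cTNT (cardiac troponin T) promoter. dnMKL1 is a dominant-negative form of MKL1, a coactivator of serum response factor (SRF), and the comparison asks which transcripts differ when it is present.

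p53 is held at a low level by MDM2, a ubiquitin ligase that marks it for destruction, and is released when DNA damage or other stress interrupts that contact. Freed p53 binds paired copies of a short motif, the half-site, near its target genes. Its targets include the cell cycle inhibitor p21 (Cdkn1a), repair enzymes, death receptors and inhibitors of growth signalling, and also Mdm2 itself, which closes a feedback loop. p53 is regulated mostly at the protein level, so the Trp53 transcript alone does not report its activity. In the heart, cardiomyocytes leave the cell cycle in the first days after birth, and p21 is among the inhibitors known to act there.

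Of the 33 genes, 18 rose and 1 fell in dnMKL1 libraries at an adjusted p-value under 0.05 in the authors' deposited table, and 14 did not pass. Among all 14056 genes tested, 16.6% were higher and 17.4% were lower by the same rule. The largest rises were those of Dcxr, Cdkn1a and Eda2r, between 5.74-fold and 7.47-fold. Of the 18 genes that rose, 11 did so by at least 2-fold and 4 by less than 1.5-fold. Over all 33 genes the median log2 fold change was 0.40, beside 0.021 over all genes tested, and values of single members ran from -0.29 for Rrm2b to 2.90 for Dcxr.

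All fold changes are on the authors' scaling of the libraries, and positive values mean higher expression with dnMKL1. The direction was read from Mkl1, the gene carried by the vector, which the authors' deposited table lists at 9.80 on the log2 scale. Estimated library totals, recovered from the size factors, ran from 8803028 to 17123588 counts for GFP and from 8835136 to 17228619 for dnMKL1. The scaling bears on the small changes. With both groups set to the same total count, every log2 fold change gains 0.29, the share of higher genes among all calls goes from 48.8% to 86.0%, and 28 of the 33 genes are higher with 0 lower. At that scaling 40.4% of all tested genes are higher and 6.60% lower. The table gives 1 comparison of the groups, so each gene is shown by its implied group means and by the standard error (SE) of its fold change. An implied mean is a group's mean in normalized counts (counts divided by the size factors), computed from the mean over all libraries and the fold change.

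The labelled cell type was checked against its markers. All 10 cardiomyocyte markers had base means (means over all libraries) of at least 10438 normalized counts in the authors' deposited table, with 594986 for Myh6. Their summed implied means were 1604190 for GFP and 878220 for dnMKL1, and 7 of the 10 fell. Of all 140 tested genes with base means of 10000 or more, 70.7% were lower. Of 7 fibroblast markers, 3 rose and 0 fell, with sums of 3437 and 4792. Of 7 endothelial markers, 0 passed in either direction (the authors' DESeq2 test; 0 also at an unadjusted p under 0.05), with sums of 2362 and 2429. Of 5 mural markers, 2 rose and 1 fell, with sums of 11622 and 7793. Acta2 made up most of both sums and fell from 10454 to 4999, while Cspg4 and Myh11 rose. The 6 macrophage markers matched to the table had sums of 138 and 123, with 1 higher and 0 lower. In the erythroid list, Hba-a1 and Hba-a2 were listed at 0, and Hbb-bs and Hbb-bt had no match by symbol. Alas2 had a base mean of 6.87 and did not pass, so absence of erythroid RNA was not shown. The markers of a type did not move together. Of the 10 cardiomyocyte markers, Actc1 and Myl3 had the largest negative fold changes, and Myl2 and Pln the smallest. In bulk samples, fewer cells of a type, less RNA per cell and a change of single marker genes cannot be told apart. Whether dnMKL1 alters the marker genes themselves was not tested, so the sums do not measure cell content. The part of other cell types in the changes below was not tested.

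The sequence just before the transcription start was examined because the genes are linked by 1 factor. RefSeq promoter windows (assembly GRCm38.p6, from 250 bases before to 50 bases after a start) matched 25 of the 33 genes with 32 windows. Pvt1, Tnfrsf10b, Ddb2, Perp, Rrm2b, Trp53inp1, Xpc and Zmat3 had no match. A p53 half-site, matched exactly and on both strands, was present in the windows of 12 of the 25 genes, or 48.0%. The share over all genes with a window was 9.55%, and over the 9931 tested genes with one it was 8.38%. Membership in the list rests on prior knowledge of p53 binding, so this share describes the list and is no test of it. Among members with a window, 7 of 13 that rose and 5 of 12 that did not pass held a half-site. The CArG box, the motif bound by SRF, was in 0 of the 25 genes and in 1.81% of all genes with a window. At so low a share, 25 genes are too few to show a lack of the motif, and sites outside these windows were not searched. The TATAAA motif was in 3 of the 25 (Trp53, Ddit4l and Eda2r) or 12.0%, beside 15.7% of all genes with a window and 9.02% of the tested genes with one.

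Cdkn1a was the one member with 2 half-sites at most 13 bases apart, an arrangement found in 0.0740% of all genes with a window. It lies in the window of the upstream of 2 annotated starts, at chr17:29090979 on the plus strand, 2790 bases before the other start. The window's bases before the first annotated exon are shown, with the stretch from the first to the second half-site in capitals. The 10 bases that follow it, tgacatgttc, differ from the half-site at 1 position.

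Cdkn1a (chr17:29090729-29090975, plus strand): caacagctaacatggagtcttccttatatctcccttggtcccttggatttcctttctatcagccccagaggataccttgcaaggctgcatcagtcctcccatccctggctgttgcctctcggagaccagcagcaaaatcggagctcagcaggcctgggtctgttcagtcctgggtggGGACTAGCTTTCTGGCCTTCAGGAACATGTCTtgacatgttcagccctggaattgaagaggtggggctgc

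Half-sites of 5 further genes that rose are shown with 15 bases on each side and the half-site in capitals, so that their match to the same motif can be compared. Those of Ccng1, Ppm1d and Sesn1, which did not pass the test, follow for contrast.

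Trp53 (chr11:69580269-69580308, plus strand): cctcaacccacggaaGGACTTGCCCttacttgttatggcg

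Mdm2 (chr10:117710920-117710959, minus strand): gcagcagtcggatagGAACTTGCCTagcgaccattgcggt

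Polk (chr13:96519394-96519433, minus strand): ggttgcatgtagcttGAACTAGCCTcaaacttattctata

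Ddit4l (chr3:137623567-137623606, plus strand): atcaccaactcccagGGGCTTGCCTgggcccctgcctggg

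Rps27l (chr9:66946291-66946330, plus strand): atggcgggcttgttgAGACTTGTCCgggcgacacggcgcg

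Ccng1 (chr11:40755447-40755486, minus strand): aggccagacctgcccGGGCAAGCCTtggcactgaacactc

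Ppm1d (chr11:85311107-85311146, plus strand): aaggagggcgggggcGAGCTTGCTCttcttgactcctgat

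Sesn1 (chr10:41887251-41887290, plus strand): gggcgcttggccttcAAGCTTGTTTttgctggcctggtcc

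Rps27l holds 2 half-sites in its window, and the one nearer to the start is shown. The half-sites of Aen, Gadd45a and Ei24 overlap annotated exons or lie within 15 bases of one, and are not shown. A half-site was thus present before the starts of genes that rose several-fold (Cdkn1a), slightly (Mdm2, Rps27l) and not by the test (Ccng1, Sesn1). Eda2r, Dcxr, Phlda3 and Sesn2, which rose by more than 2-fold, had no exact half-site in these windows.

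Among p53 and its regulators, 3 of 5 genes rose, 0 fell and all 5 had positive fold changes. Over all genes tested, 16.6% were higher and 17.4% lower, the shares to set beside each role group below. Trp53 (chr11:69580359-69591873 on GRCm38) had implied means of 162 (GFP) and 248 (dnMKL1) normalized counts. The authors' deposited table gave it a log2 fold change of 0.61 (SE 0.13) and an adjusted p of 2.2e-05, which is 1.53-fold with a 95% interval of 1.28 to 1.82. Mdm2, the ligase that removes p53 and is also its target, went from 1343 to 1615 normalized counts. In the authors' deposited table this was 0.27 (SE 0.10) on the log2 scale, adjusted p = 0.023, or 1.20-fold with an interval of 1.05 to 1.37. Mdm4, a relative of Mdm2 that binds and inhibits p53, went from 264 to 331 and did not pass (log2 fold change 0.33, SE 0.16, adjusted p = 0.097 in the authors' deposited table). Ppm1d, a phosphatase that switches p53 signalling off, had a nearly equal log2 fold change of 0.33 (SE 0.14) and lay just outside the threshold, with an adjusted p of 0.052 in the authors' deposited table. Trp53inp1, a stress protein that assists p53, had implied means of 259 and 849. The authors' deposited table lists 1.71 on the log2 scale (SE 0.41, adjusted p = 2.1e-04), and the 95% interval ran from 1.88-fold to 5.73-fold. That SE was 4.01 times the median SE of the 200 tested genes nearest in base mean, the largest such ratio among the 33 genes.

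**Figure D1:**
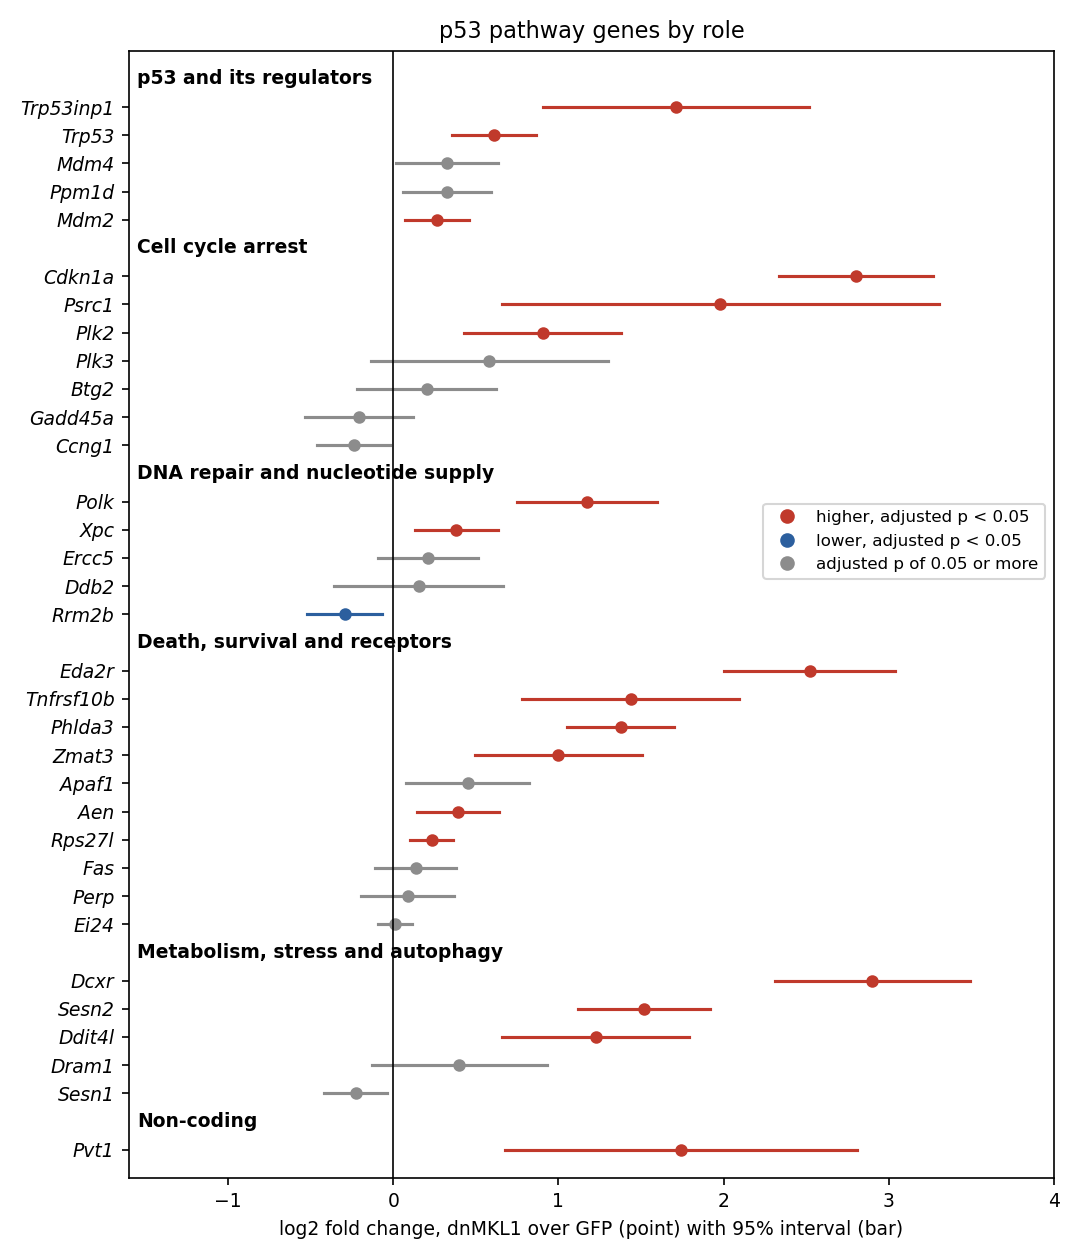
Log2 fold change of dnMKL1 over GFP (x axis) for each of the 33 genes, grouped by role (y axis); points are the deposited values, bars are 95% intervals from the deposited SE, and colour gives the call at an adjusted p under 0.05. Red points (18 genes) all lie to the right of 0, the 1 blue point is Rrm2b at -0.29, and the bar of Trp53inp1 is wide beside those of its neighbours.

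The cell cycle group held the gene with the smallest p-value of the list and several that did not pass: 3 of 7 rose and 0 fell. Cdkn1a (chr17:29090976-29100727), whose product p21 blocks cyclin-dependent kinases, had implied means of 412 and 2875 normalized counts. The authors' deposited table gave a log2 fold change of 2.80 (SE 0.24) and an adjusted p of 2.9e-29, a rise of 6.98-fold with a 95% interval of 5.05 to 9.64. Its p-value ranked 24 among the 14056 genes tested. Psrc1, which encodes a spindle-associated protein, rose from 2.62 to 10.4 normalized counts, with a log2 fold change of 1.98 (SE 0.67, adjusted p = 0.013) in the authors' deposited table. Since its GFP mean is under 3 normalized counts, the fold against a floor of 3 is 3.45. Plk2, a polo-like kinase induced by stress, rose from 466 to 874 (log2 fold change 0.91, SE 0.24, adjusted p = 0.0011 in the authors' deposited table).

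The other 4 genes of the group did not pass. Plk3, a second stress-responsive polo-like kinase, went from 16.9 to 25.2 normalized counts, with a log2 fold change of 0.58 (SE 0.37) in the authors' deposited table. Btg2, an antiproliferative gene, had 0.20 (SE 0.22) there, with an SE 2.42 times the median of the 200 nearest genes. Gadd45a, a stress gene of arrest and repair, was at -0.21 (SE 0.17) in the authors' deposited table. An antisense transcript covers 19.1% of its exon length, which makes that value uncertain as for Ddb2 below. The base mean was 7.46 for that transcript and 142 for Gadd45a. Ccng1 (cyclin G1) was the most abundant of the 33 genes, with implied means of 14406 and 12197 and -0.24 (SE 0.11, adjusted p = 0.085) on the log2 scale in the authors' deposited table. With equal total counts in both groups, Gadd45a and Ccng1 turned slightly positive, to 0.082 and 0.048. The 95% interval of Ccng1, which is not adjusted for the number of genes, was 0.727-fold to 0.986-fold.

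In DNA repair and nucleotide supply, 2 of 5 genes rose and 1 fell. Polk, a polymerase that copies past damaged bases, rose from 72.0 to 162 normalized counts, a log2 fold change of 1.17 (SE 0.22, adjusted p = 6.8e-07) in the authors' deposited table. Xpc, which recognises damage in nucleotide excision repair, rose from 330 to 430 (log2 fold change 0.38, SE 0.13, adjusted p = 0.011 in the authors' deposited table). Rrm2b, the ribonucleotide reductase subunit that supplies nucleotides outside S phase, fell from 284 to 231. The authors' deposited table gave -0.29 (SE 0.12, adjusted p = 0.035) on the log2 scale, which is 81.6% of the GFP level with an interval of 69.7% to 95.5%. This call was lost, at an adjusted p above 0.05, with equal total counts in both groups. Ercc5, an excision repair nuclease, and Ddb2, a damage sensor, did not pass, with log2 fold changes of 0.21 (SE 0.15) and 0.15 (SE 0.26) in the authors' deposited table. The exons of Ddb2 overlap those of Acp2 on the opposite strand over 23.8% of their length. Base means were 468 for Acp2 and 44.3 for Ddb2. Whether the counting used strand is not given in the sources used here, so the value of Ddb2 is uncertain. For Rrm2b and Cdkn1a, opposite-strand genes without values here cover 8.04% and 7.68% of the exon length.

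Genes of cell death, survival and surface receptors numbered 10, of which 6 rose, 0 fell and all 10 had positive fold changes. Eda2r, a receptor of the tumour necrosis factor family, lies on chromosome X (97333840 to 97377216) and had implied means of 139 and 798. The authors' deposited table gave it a log2 fold change of 2.52 (SE 0.26, adjusted p = 2.1e-19), or 5.74-fold with an interval of 4.01 to 8.23. Tnfrsf10b, the receptor for the death ligand TRAIL, rose from 12.8 to 34.6, with a log2 fold change of 1.44 (SE 0.33, adjusted p = 1.3e-04) in the authors' deposited table. Fas, another death receptor of that family, had 232 and 255 normalized counts and did not pass, with an interval of 0.927-fold to 1.30-fold. Eda2r and Tnfrsf10b thus passed and Fas did not, and no difference between the 3 receptors was tested.

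Phlda3, which represses the survival kinase AKT, rose from 266 to 690 normalized counts. On the log2 scale this was 1.38 (SE 0.17, adjusted p = 5.7e-15) in the authors' deposited table. Zmat3, a zinc finger protein that binds RNA, rose from 41.0 to 81.9 (log2 fold change 1.00, SE 0.26, adjusted p = 6.5e-04 in the authors' deposited table). Aen, a nuclease linked to apoptosis, rose by less, from 456 to 598 (0.39, SE 0.13, adjusted p = 0.0076 in the authors' deposited table). Rps27l, a ribosomal protein paralogue, rose from 796 to 935, a log2 fold change of 0.23 (SE 0.07, adjusted p = 0.0023) in the authors' deposited table. Reads of Rps27l may be shared with near-identical copies, which makes its value less certain. Apaf1, the scaffold of the apoptosome, had a log2 fold change of 0.45 (SE 0.19) and an adjusted p of 0.052 in the authors' deposited table. Perp, a membrane protein of desmosomes, and Ei24, a protein of the endoplasmic reticulum, had many reads and small differences. Their intervals were 0.874-fold to 1.29-fold for Perp and 0.938-fold to 1.08-fold for Ei24. For Ei24 the SE was 0.562 times the median of its 200 nearest genes, the smallest ratio of the list.

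Of 5 genes of metabolism, stress and autophagy, 3 rose and 0 fell, with the highest group median among those with several genes (log2 fold change 1.23). Dcxr, a reductase of sugars and dicarbonyl compounds (chr11:120725399-120727281), had the largest fold change of the list. Its implied means were 28.6 and 213 normalized counts, and the authors' deposited table gave 2.90 (SE 0.30, adjusted p = 1.3e-19) on the log2 scale, or 7.47-fold with an interval of 4.96 to 11.3. Sesn2, a sestrin that restrains the growth kinase mTORC1, rose from 119 to 341 (log2 fold change 1.52, SE 0.20, adjusted p = 5.1e-12 in the authors' deposited table). Ddit4l, a further inhibitor of mTORC1, rose from 35.6 to 83.3, with 1.23 (SE 0.29, adjusted p = 1.5e-04) in the authors' deposited table. Sesn1, the related sestrin, was at 1962 and 1674, with a log2 fold change of -0.23 (SE 0.10) and an adjusted p of 0.0501 in the authors' deposited table. It lay nearest to the threshold from outside, and Rrm2b nearest from inside. Sesn1 passed, on the lower side, when genes with base means under 10 were left out and with median-centring, and turned to 0.059 with equal total counts. Dram1, a lysosomal protein of autophagy, was at 32.3 and 42.7 and did not pass. The non-coding RNA gene Pvt1 rose from 6.997 to 23.4 normalized counts, a log2 fold change of 1.74 (SE 0.54, adjusted p = 0.0058) in the authors' deposited table.

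Levels were compared between genes per kilobase of annotated exon (GENCODE annotation on GRCm38). In the GFP group the highest were Ccng1 and Perp, with 4102 and 3070 normalized counts per kilobase, followed by Rps27l with 975 and Btg2 with 687. Cdkn1a held position 9 in that order at 116 per kilobase, and position 4 with dnMKL1 at 809. Eda2r moved from 23.6 to 135 and Dcxr from 25.0 to 187 per kilobase. The order was thus led by Ccng1, Perp and Rps27l in both groups. Trp53 was at 40.1 and 61.3 per kilobase, while Psrc1, Pvt1 and Tnfrsf10b were lowest in both groups, all under 7 per kilobase.

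**Figure D2:**
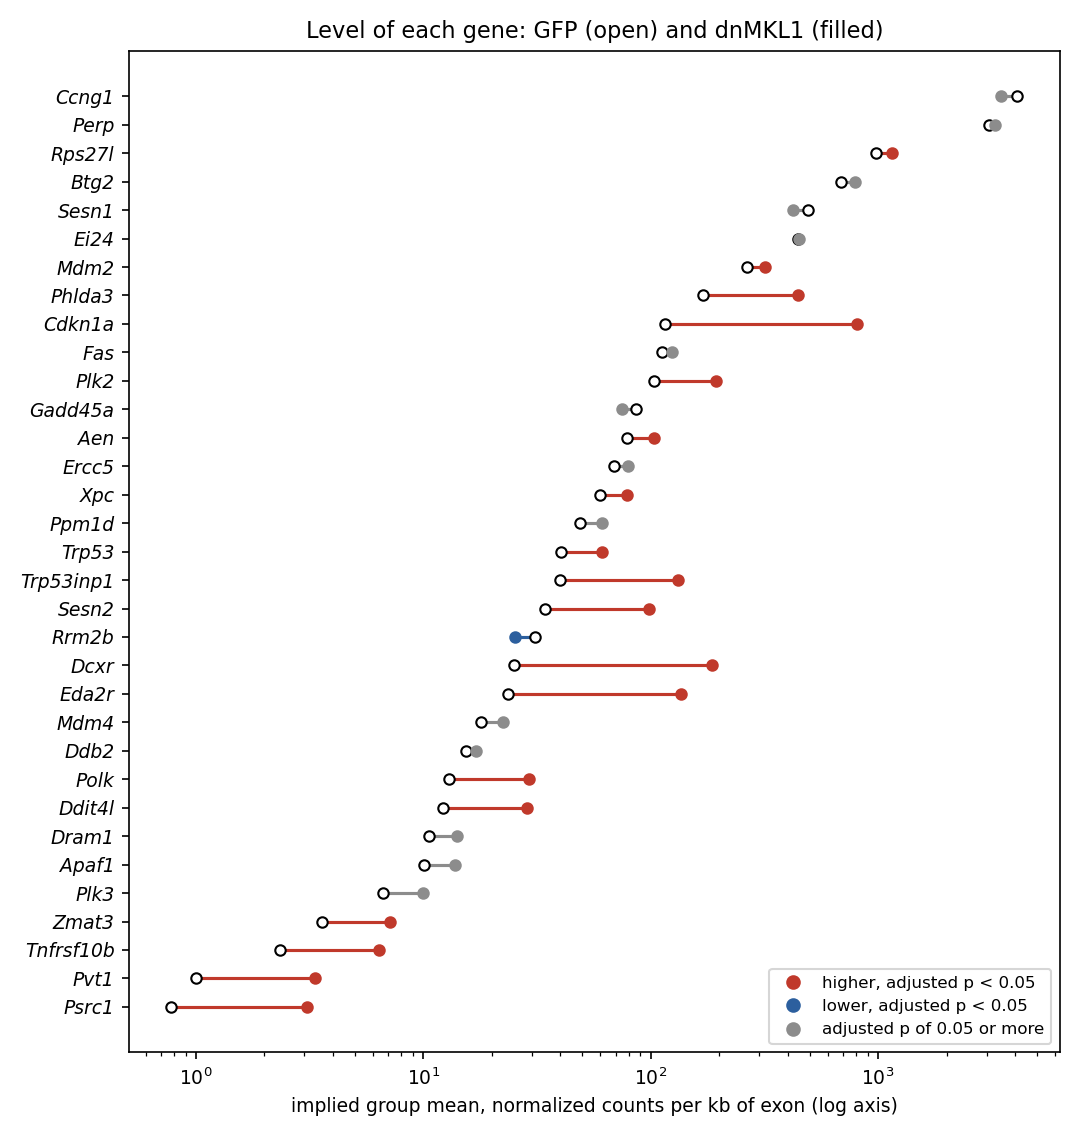
Implied group means of the 33 genes in normalized counts per kilobase of exon (x axis, log scale), ordered by the GFP level (y axis); open circles are the GFP group, filled circles the dnMKL1 group, and colour gives the call. Long red lines mark Cdkn1a (116 to 809), Dcxr (25.0 to 187) and Eda2r (23.6 to 135), while Ccng1 and Perp at the top hardly move.

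The median fold change over all genes was lower at higher expression, so the members were set beside genes of the same class. Among 3273 tested genes with base means from 10 to 100 normalized counts, the median log2 fold change was 0.14, and it was 1.00 for the 7 members of that class. From 100 to 1000 the medians were 0.0076 over 6515 genes and 0.42 over 18 members, of which 11 rose and 1 fell. Over all genes of that class 20.0% were higher and 19.3% lower. From 1000 to 10000 the medians were -0.13 over 1986 genes and 0.14 over 6 members. Ccng1 alone exceeded 10000, at -0.24 beside a class median of -0.60, and Psrc1 alone was under 10. Member medians lay above the class medians in every class that held several members.

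**Figure D3:**
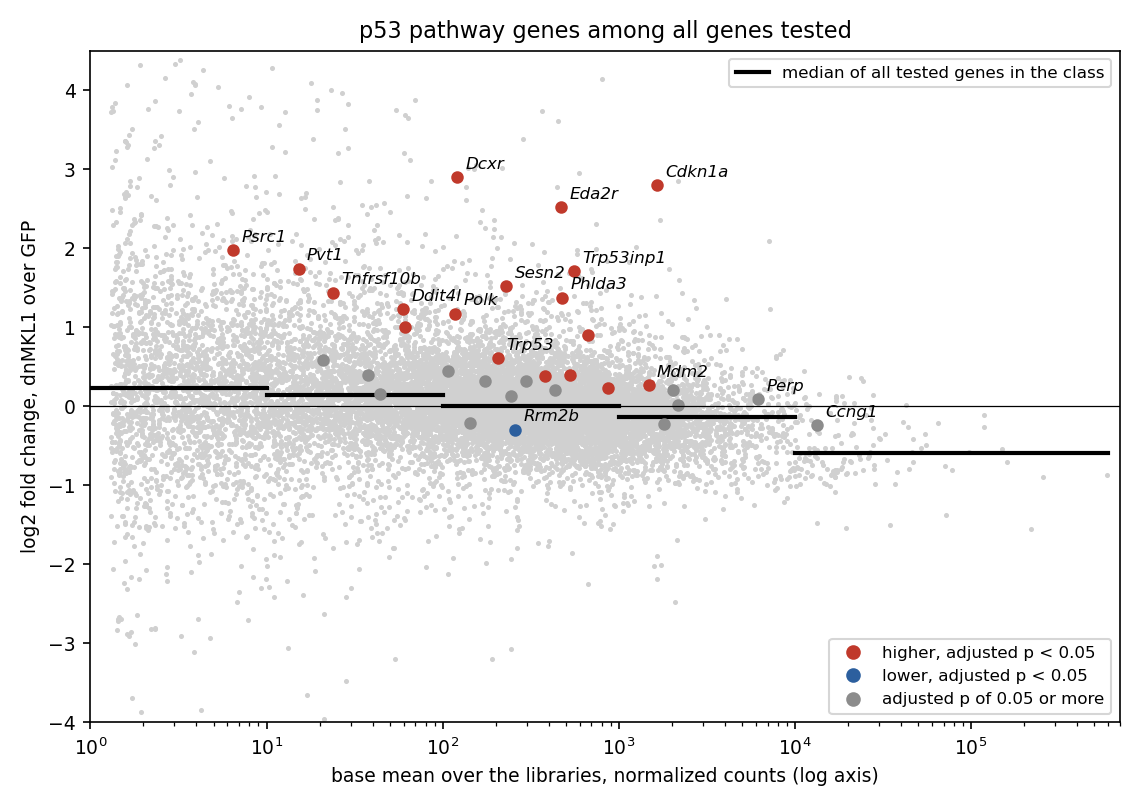
Log2 fold change (y axis) against base mean in normalized counts (x axis, log scale) for all tested genes (grey) and the 33 genes (coloured by call); black bars are the medians of all tested genes in each class of base mean, and genes beyond -4 or 4.5 are not drawn. The black bars descend from 0.23 to -0.60 with rising level, and 30 of the 33 coloured points lie above the bar of their class.

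The deposited SE was larger for most of these genes than for others of like base mean. An SE depends on the number of reads and on the group means as well as on the spread between libraries. These parts were not separated. For 28 of 33 genes the SE exceeded the median of the 200 nearest genes, and the median ratio was 1.19. For 5 genes it was at least 2 times as large. These were Trp53inp1, Cdkn1a, Plk2, Eda2r and Btg2, with ratios of 4.01, 2.57, 2.48, 2.45 and 2.42. A single library that decides such a value cannot be seen in this comparison.

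Other genes of the pathway were followed in lists set by known role, with earlier results of these data known. Of the further known targets, Gdf15, Ephx1 and Pcna had already been reported to differ when they were listed. Of 14 upstream kinases and damage sensors, 1 rose and 0 fell, with a median log2 fold change of 0.25. Over all genes tested, 16.6% were higher and 17.4% lower, with a median of 0.021. With equal total counts in both groups, 8 of the 14 were higher, beside 40.4% of all tested genes. The gene that rose was Rad50, part of the complex that senses DNA breaks, at 1.44 (SE 0.14, adjusted p = 1.4e-21) in the authors' deposited table. Its partners Mre11a and Nbn were at -0.091 (SE 0.13) and -0.12 (SE 0.07) in the authors' deposited table, and the kinase Atm was at -0.010 (SE 0.20). Topbp1, a checkpoint scaffold with the next smallest p-value, had 0.21 (SE 0.12) in the authors' deposited table. Of 9 tested p53 family members and cofactors, 1 rose and 1 fell. With equal total counts 5 were higher and 1 lower, beside 40.4% and 6.60% of all tested genes. Trp63, a p53 relative, rose from 35.7 to 81.0 normalized counts (log2 fold change 1.18, SE 0.30, adjusted p = 5.3e-04 in the authors' deposited table). Ppp1r13l, an inhibitor of p53, fell from 324 to 204, with -0.67 (SE 0.11, adjusted p = 8.0e-08) in the authors' deposited table.

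Of 30 further known targets, 28 were matched by symbol and 27 were tested. Beside 16.6% higher and 17.4% lower over all genes tested, 12 of these rose and 1 fell, with a median of 0.61. The 12 include Gdf15, Ephx1 and Pcna, already reported to differ when they were listed, so the count is partly fixed by that choice. Ephx1, an epoxide hydrolase, and Gdf15, a stress hormone, had the smallest p-values. They rose from 86.4 to 1525 and from 8.87 to 131 normalized counts, which are log2 fold changes of 4.14 (SE 0.38) and 3.88 (SE 0.43) in the authors' deposited table. The death genes of the BCL2 family, singled out after their values were seen, were among those that rose. Bax went from 213 to 350 and Bbc3 from 19.1 to 52.1 normalized counts, with adjusted p of 7.6e-07 and 2.1e-04 in the authors' deposited table. Pmaip1 went from 2.47 to 36.3 (adjusted p = 2.9e-06 in the authors' deposited table), with its GFP mean under the floor of 3. Bid, a further member of that family, did not pass. Fdxr, a mitochondrial reductase and known p53 target, was the gene that fell, at -0.49 (SE 0.15, adjusted p = 0.0044) in the authors' deposited table. With equal total counts, 15 of these targets were higher, beside 40.4% of all tested genes, and 0 were lower, so the call of Fdxr was lost. Gdf15 and Tap1 are also known targets of other stress or interferon pathways. Regulation of the remaining genes, members included, by factors other than p53 was not examined.

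Genes that act with or downstream of p21 were set beside Cdkn1a. Of 5 other inhibitors of cyclin-dependent kinases, 0 rose and 1 fell, beside 16.6% higher and 17.4% lower over all genes tested. Cdkn2c fell to 63.7 normalized counts (log2 fold change -0.65, SE 0.21, adjusted p = 0.0098 in the authors' deposited table), and Cdkn1b was at -0.39 (SE 0.21). The call of Cdkn2c was lost with equal total counts. Of 12 cell cycle genes known to be repressed through p21 and the DREAM complex, 0 passed in either direction at an adjusted p under 0.05 in the authors' deposited DESeq2 table, and 0 had an unadjusted p under that limit. Their median log2 fold change was -0.41, and 11 of 12 were negative, beside 6741 of all 14056 tested genes. With equal total counts every log2 fold change gains 0.29. Birc5 (-0.28), Aurkb (-0.18) and Foxm1 (-0.041) then turn positive, the other negative values stay negative, and 0 of the 12 passed in either direction. Whether these genes were repressed through p21 was not tested. Top2a and Cdk1, with the smallest p-values, were at -0.53 (SE 0.40) and -0.50 (SE 0.38) in the authors' deposited table, so both intervals include 0.

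**Figure D4:**
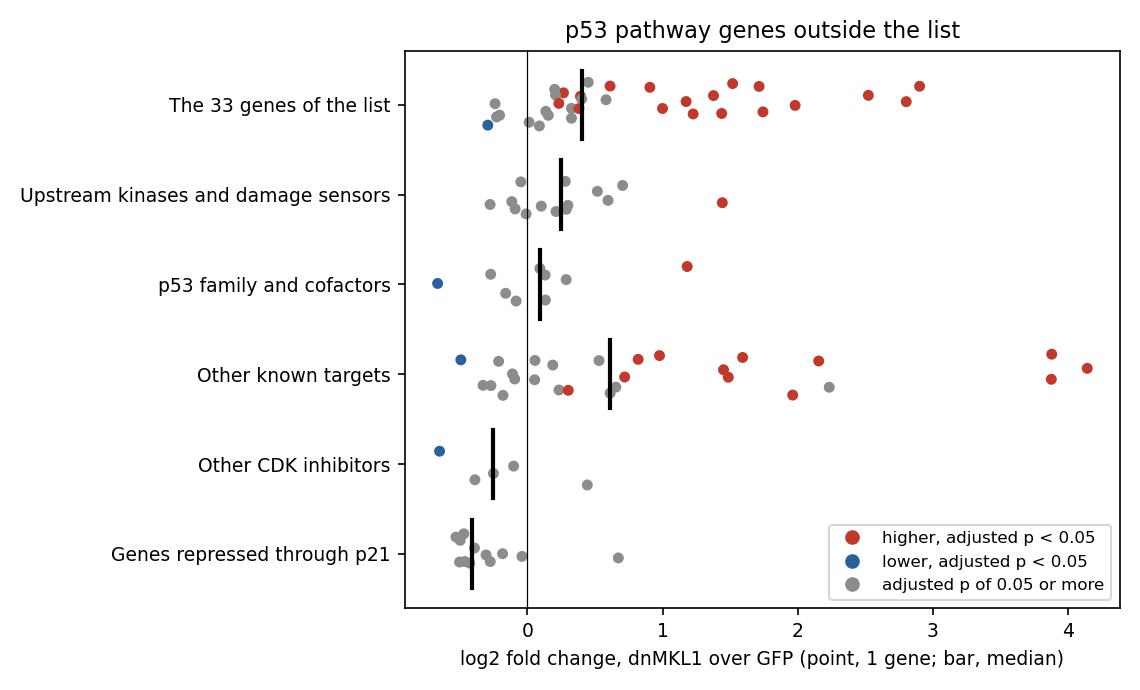
Log2 fold change of dnMKL1 over GFP (x axis) for the 33 genes and for 5 lists of other pathway genes (y axis); each point is 1 gene coloured by call, jittered vertically, and black bars are list medians. The list of other known targets reaches furthest to the right (Ephx1 at 4.14, median 0.61), while the genes repressed through p21 hold no coloured point and have a median of -0.41.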

How the data were processed

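RNA from sorted cardiomyocytes was sequenced in 5 GFP and 5 dnMKL1 libraries. Reads were aligned with STAR 2.5.3a and counted with featureCounts (Subread 1.5.2) on mm10, per the submitters' processing notes. Which annotation was used, and whether strand was, is not given in the sources used here. The one table analysed holds the columns of a DESeq2 result, per the file headers. Its base mean is the authors' signal in normalized counts. Fold changes and their SEs were deposited as log2 values. The Wald column, a deposited score, is the fold change divided by its SE. The deposited p-value is its two-sided p, adjusted by Benjamini-Hochberg over 14056 genes.

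Implied means, 95% intervals (normal, from the SE), size factors, scaling shifts and motif counts were computed with Python 3.11.15, pandas 2.3.3 and scipy 1.17.1. The adjustment was recomputed with a largest gap of 1.4e-07, and the code was tested on simulated data. Size factors came from genes whose values match 1 read in 1 library. The p-values weigh the difference between the groups against its SE, which carries the spread between the libraries of each group.

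The members, lists and alternatives were chosen with earlier results of these data known. Text names every member in full that passed or is Trp53, Mdm2, Mdm4 or Cdkn1a, the others by fewer values, and the 2 smallest p of each further list; Mre11a, Nbn, Atm, Bax, Bbc3, Pmaip1, Bid, Fdxr and Tap1 were named after their values were seen.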

Additional observations from a re-analysis of the deposited data

How the results depend on the processing

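No paired analysis was possible because the table holds 1 comparison and no values per library. Fits without 1 library and count tests with another tool were not run for the same reason. The 18 genes called higher became 11 at an absolute log2 fold change of at least 1, since fewer genes can pass, and 28 with equal total counts in both groups. The shares of all tested genes that were higher were 4.65% and 40.4% at these settings, against 16.6%. Over the other 7 settings the number ran from 14 to 21. The 1 gene called lower became 0 at an adjusted p under 0.01, at either minimum fold change and with equal total counts, 2 with a base mean of at least 10 or 100 and with median-centring, and 3 at an adjusted p under 0.1. For the lower calls the cause was not tested. The median of the 33 genes moved from 0.40 to 0.69 with equal total counts, by the shift itself, and lay between 0.33 and 0.45 otherwise, Cdkn1a left out included. Only that scaling turned signs: Ccng1 to 0.048, Gadd45a to 0.082 and Sesn1 to 0.059, none called. Of 67 other pathway genes tested, 14 were higher and 3 lower, with a median log2 fold change of 0.091. Over all tested genes 16.6% were higher and 17.4% lower, with a median of 0.021. The 17 calls among the 67 became 9 with a base mean of at least 100. They became 10 at an absolute log2 fold change of at least 1, and 29 with equal total counts. At these 3 settings 19.4%, 4.65% and 40.4% of all tested genes were higher, and 25.7%, 2.05% and 6.60% lower. Psrc1 drops out with a base mean of at least 10. Adjustment over all p-values left all 33 calls as they were. Intervals cover the spread between libraries as the authors' fit estimated it, and low means such as that of Psrc1 rest on few reads.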
